A study of Mus musculus with 6 samples.

Results

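The 10 genes described here, Ngp, Camp, Ltf, S100a8, S100a9, Elane, Mpo, Prtn3, Retnlg and Cebpe, encode granule proteins, cytosolic proteins and a transcription factor of developing neutrophils and related myeloid cells. They were chosen by name, and each was represented by its brightest probe annotated to 1 symbol. All 10 were found among 19938 genes, with 1 such probe each. Expression was measured in whole livers of C57Bl6/J mouse pups taken within 1 day of birth. Their mothers, from mice aged 4 to 5 weeks per the labels, ate isocaloric diets with 6 g% of oil, and the fathers shared these diets during mating. The Control diet was made with soybean oil, the ALA diet with flaxseed oil (alpha-linolenic acid at 31.6% per the labels) and the SFA diet with coconut oil (saturated fatty acids at 48.51%). There were 2 arrays per diet and 6 in all, each carrying RNA pooled from 3 livers. Nothing in the labels says that duplicate pools came from separate litters, so the p-values measure only the spread between these arrays, which may be technical.

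Signals are log2 values made by RMA, a method that corrects background, scales arrays to each other and summarises the probes of a gene. Of 6 hepatocyte genes, Alb, Ttr, Apoa1, Fgb and Cps1 were between 11.9 and 12.8 on all arrays and were not called on either diet. The sixth was the fetal serum protein gene Afp. Its signal was 4.52 and 4.81 on Control, 4.94 and 5.60 on ALA and 6.26 and 6.44 on SFA. The change of Afp on SFA against Control was 1.68 (SE 0.23). Afp met the minimum signal for testing, given below, largely through its SFA arrays, so no call is read for it. Across the 10977 tested genes, which are not independent of each other, r between duplicates was 0.977 for Control, 0.978 for ALA and 0.986 for SFA. The pools differed in sex. Xist, which is expressed from the inactive X chromosome, was at 10.7 and 8.34 on the Control arrays, 3.76 and 4.24 on the ALA arrays and 9.46 and 9.51 on the SFA arrays. The Y-linked gene Eif2s3y was at 3.63 and 7.95, 7.74 and 7.80, and 4.11 and 3.79 in the same order. Both ALA arrays thus had Y-linked signal and little Xist, Control replicate 2 had both signals, and Control replicate 1 and both SFA arrays had Xist without Y-linked signal. In the comparisons of ALA, diet and the sex makeup of the pools cannot be told apart. For SFA against Control, changes without Control replicate 2 are given for Ngp and S100a9, but not for Mpo and Retnlg. The SFA and Control arrays then compared have no Y-linked signal. The ALA arrays, which have it, stay in the fit and enter its estimate of spread. The lone Control array is then assumed to vary like the other groups.

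Neutrophils fill their granules in sequence. Promyelocytes make the azurophilic (primary) granules with myeloperoxidase and serine proteases, and myelocytes and metamyelocytes then make the specific (secondary) granules with lactoferrin and cathelicidin. Cytosolic S100a8 and S100a9 and the resistin-like protein encoded by Retnlg accumulate in the later, maturing cells. The transcription factor C/EBP epsilon, encoded by Cebpe, is required for specific granule genes, while PU.1 and other C/EBP factors act on azurophilic genes earlier. The mouse liver is a site of blood cell formation before birth, and its granulocyte precursors decline after it.

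The promoters of the 3 azurophilic genes and the 3 specific granule genes are shown because the azurophilic and specific genes are compared below, and that of S100a9 because it is a member that changed between diets. Each runs 5′ to 3′ from 250 bases before the gene's start to 50 after it and was taken from RefSeq (GRCm38.p6). The set of promoter sequences used held all members but Cebpe. Capitals mark matches on either strand to a C/EBP motif, searched as TTGCNNAA, and to a PU.1 motif, searched as GAGGAAGT, which did not overlap in these promoters.
Elane (chr10:79886062-79886361, + strand): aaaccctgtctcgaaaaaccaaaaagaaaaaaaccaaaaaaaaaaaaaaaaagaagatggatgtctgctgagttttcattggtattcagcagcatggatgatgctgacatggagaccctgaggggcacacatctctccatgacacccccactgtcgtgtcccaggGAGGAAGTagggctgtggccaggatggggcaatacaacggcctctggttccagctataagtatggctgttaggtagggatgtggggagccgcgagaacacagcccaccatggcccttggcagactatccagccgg
Mpo (chr11:87793534-87793833, + strand): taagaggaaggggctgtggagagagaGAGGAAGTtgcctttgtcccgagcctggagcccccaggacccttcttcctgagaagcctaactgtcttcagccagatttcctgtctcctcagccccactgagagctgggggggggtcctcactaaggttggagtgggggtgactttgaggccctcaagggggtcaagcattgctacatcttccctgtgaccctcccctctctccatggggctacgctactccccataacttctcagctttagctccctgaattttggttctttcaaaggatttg
Prtn3 (chr10:79879417-79879716, + strand): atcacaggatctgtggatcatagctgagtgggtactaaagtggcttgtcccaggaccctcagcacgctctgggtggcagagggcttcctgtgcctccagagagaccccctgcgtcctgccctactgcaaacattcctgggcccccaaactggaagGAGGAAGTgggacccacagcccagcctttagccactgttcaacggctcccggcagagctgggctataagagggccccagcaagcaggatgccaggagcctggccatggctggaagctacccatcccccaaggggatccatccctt
Ngp (chr9:110419558-110419857, + strand): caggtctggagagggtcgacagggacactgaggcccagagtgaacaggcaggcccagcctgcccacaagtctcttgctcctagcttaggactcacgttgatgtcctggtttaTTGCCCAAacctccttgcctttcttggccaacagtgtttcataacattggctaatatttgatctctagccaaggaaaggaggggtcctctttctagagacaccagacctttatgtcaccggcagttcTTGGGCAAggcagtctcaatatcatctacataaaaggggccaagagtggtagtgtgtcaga
Camp (chr9:109849407-109849706, - strand): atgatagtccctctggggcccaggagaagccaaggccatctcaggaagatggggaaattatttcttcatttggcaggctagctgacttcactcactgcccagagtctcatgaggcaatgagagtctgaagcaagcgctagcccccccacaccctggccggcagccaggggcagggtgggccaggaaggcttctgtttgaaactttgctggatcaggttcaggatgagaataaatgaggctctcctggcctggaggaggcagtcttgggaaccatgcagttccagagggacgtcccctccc
Ltf (chr9:111019042-111019341, + strand): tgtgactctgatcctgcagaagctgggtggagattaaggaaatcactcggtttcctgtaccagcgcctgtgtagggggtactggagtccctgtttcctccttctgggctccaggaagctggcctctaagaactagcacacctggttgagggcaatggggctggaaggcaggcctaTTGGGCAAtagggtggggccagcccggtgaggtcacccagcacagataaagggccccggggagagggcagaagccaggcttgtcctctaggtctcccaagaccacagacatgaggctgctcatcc
S100a9 (chr3:90695672-90695971, - strand): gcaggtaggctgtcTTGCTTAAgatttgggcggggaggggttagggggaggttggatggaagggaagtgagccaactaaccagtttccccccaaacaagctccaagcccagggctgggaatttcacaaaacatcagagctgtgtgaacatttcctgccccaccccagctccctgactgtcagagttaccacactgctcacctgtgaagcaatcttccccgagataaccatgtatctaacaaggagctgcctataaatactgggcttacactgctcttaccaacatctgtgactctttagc

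The PU.1 letters occurred in the promoters of all 3 azurophilic genes, with the first base 85 bases before the start in Elane, 95 in Prtn3 and 224 in Mpo. Of the other 6 member promoters searched, that of S100a8 held them. Of all 32851 promoters in the table, 3.20% had a match. The C/EBP letters occurred in Ngp (138 and 11 bases before the start), Ltf (75), S100a9 (236) and Retnlg (246), and in none of the azurophilic promoters, beside 10.8% of all promoters. Camp held neither motif in this window. A shorter ETS motif, AGAGGAA, was also searched; it overlapped the PU.1 match in Mpo and occurred in S100a8 and Mpo, beside 10.4% of all promoters. These matches describe the letters only.

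Several members are neighbours on the chromosome (GRCm38.p6). Prtn3 (chromosome 10, 79879667 to 79883174) and Elane (79886312 to 79888216) lie 3137 bases apart. S100a8 and S100a9 lie 22595 bases apart on chromosome 3. Camp, Ngp and Ltf lie in that order on chromosome 9, with 570351 bases between Camp and Ngp and 596279 between Ngp and Ltf. Mpo overlaps the gene model Gm34064, and signal from the 2 was not separated here. The other members overlap no annotated gene.

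All 10 genes were dim. Over the 6 arrays the lowest signal was 4.15 (Mpo, Control replicate 2) and the highest 6.35 (Elane, ALA replicate 1). For a background level, 1035 probes of olfactory receptor genes, most of which are silent in liver, were used. Their 95th percentile lay between 4.25 and 4.44 on the 6 arrays. All members were above this level on every array except Mpo on Control replicate 2, but some only barely. On Control replicate 1 the level was 4.357, with Retnlg at 4.360, Ngp and S100a8 at 4.38, Mpo at 4.48 and S100a9 at 4.53. Changes of these genes against Control thus start near the background level. On each array between 1 and 6 of the olfactory receptor probes were nevertheless brighter than the brightest member. With signals this low, the sizes of changes may be understated. In whole liver, fewer cells of a type and less RNA per cell cannot be told apart.

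**Figure D1:**
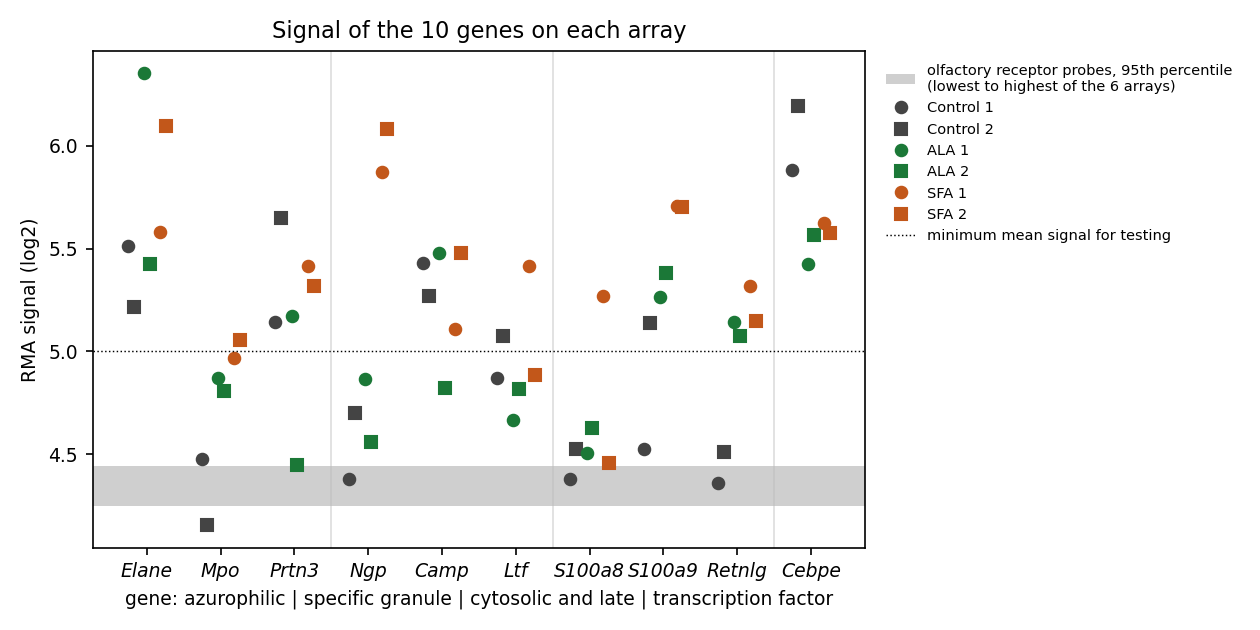
RMA signal on the log2 scale (vertical axis) of each of the 10 genes (horizontal axis) on the 6 arrays; grey points are Control, green ALA and orange SFA, with circles for replicate 1 and squares for replicate 2. The grey band spans the 95th percentile of olfactory receptor probes over the arrays (4.25 to 4.44), and the dotted line is the mean signal of 5 needed for testing; Ngp on the SFA arrays stands apart from the other 4 arrays.

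Genes were tested with limma in a fit over all 6 arrays if their mean signal was at least 5. Of the 10 members 6 passed this minimum: Ngp, Camp, S100a9, Elane, Prtn3 and Cebpe. Ltf, S100a8, Mpo and Retnlg had means of 4.95, 4.63, 4.72 and 4.93, and for these the values of a second fit over all 19938 genes are given. Members just inside the minimum were Ngp at 5.08 and Prtn3 at 5.19, and just outside it were Ltf and Retnlg. Ngp passed through its SFA arrays, since the other 4 were all below 5.

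Ngp, which encodes neutrophilic granule protein, a cathelicidin relative of the specific granules, was the member with the largest change. Its signal was 4.38 and 4.70 on the Control arrays, 4.86 and 4.56 on the ALA arrays and 5.87 and 6.08 on the SFA arrays. Both SFA arrays were above all others, and the Control and ALA arrays overlapped. Since Ngp met the minimum through its SFA arrays, the fit over all genes is given first. In it Ngp rose on SFA against Control by 1.44 on the log2 scale (SE 0.18, n = 2 arrays per group, limma adjusted p = 0.00586), a 2.71-fold difference. Between ALA and SFA the change was -1.27 (SE 0.18, adjusted p = 0.0524), which was not called. Among genes past the minimum, the adjusted p was 0.00538 for SFA against Control and 0.0392 for ALA against SFA. ALA and Control differed by 0.17 (SE 0.18, adjusted p = 0.737, 95% interval -0.24 to 0.58). With each of the 6 arrays left out in turn, the rise on SFA was between 1.28 and 1.60. Without Control replicate 2 it was 1.60. These refits were among genes past the minimum, which Ngp met through its SFA arrays, so no call of the rise is read from them. The difference between ALA and SFA, called among genes past the minimum, lost that call without any 1 array. Its adjusted p was then 0.0570 without either Control array, 0.0940 and 0.0909 without ALA replicate 1 and 2, and 0.168 and 0.191 without SFA replicate 1 and 2.

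The other specific granule genes did not share this pattern. Camp, which encodes the antimicrobial cathelicidin peptide, was at 5.43 and 5.27 on Control, 5.48 and 4.82 on ALA and 5.11 and 5.48 on SFA. The 3 groups overlapped. Its change on SFA was -0.06 (SE 0.24, adjusted p = 0.890, 95% interval -0.61 to 0.50), and on ALA it was -0.20 (SE 0.24, adjusted p = 0.655). Ltf, which encodes the iron-binding protein lactoferrin, was at 4.87 and 5.07 on Control, 4.66 and 4.82 on ALA and 5.42 and 4.88 on SFA. SFA replicate 1 was the brightest, while SFA replicate 2 lay between the Control arrays. In the fit over all genes Ltf was at 0.18 on SFA (SE 0.20, adjusted p = 0.630) and at -0.23 on ALA (SE 0.20, adjusted p = 0.663).

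Among the azurophilic genes, Elane, which encodes neutrophil elastase, was at 5.51 and 5.22 on Control, 6.35 and 5.42 on ALA and 5.58 and 6.09 on SFA. The ALA arrays differed by 0.93, more than the diets did, and both SFA arrays were above both Control arrays. Its changes of 0.52 on ALA and 0.47 on SFA did not pass (SE 0.31, adjusted p = 0.361 and 0.344). Prtn3, the gene of the elastase-related proteinase 3 and the neighbour of Elane, was at 5.14 and 5.65 on Control, 5.17 and 4.45 on ALA and 5.41 and 5.32 on SFA. Its lowest value was on ALA replicate 2, and SFA lay within the range of Control. The changes were -0.59 on ALA (SE 0.26, adjusted p = 0.224) and -0.03 on SFA (SE 0.26, adjusted p = 0.951).

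Mpo, which encodes the heme enzyme myeloperoxidase, was at 4.48 and 4.15 on Control, 4.87 and 4.81 on ALA and 4.97 and 5.06 on SFA. The 3 groups did not overlap, and the duplicates lay within 0.09 of each other on ALA and on SFA and 0.32 apart on Control. Below the minimum for testing, Mpo was at 0.70 on SFA (SE 0.16) with an adjusted p of 0.0420 in the fit over all genes. On ALA it was at 0.52 (SE 0.16, adjusted p = 0.136).

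S100a8 and S100a9 encode the 2 subunits of calprotectin, a calcium- and zinc-binding protein of neutrophil and monocyte cytosol. S100a9 was at 4.53 and 5.14 on Control, 5.26 and 5.38 on ALA and 5.71 and 5.70 on SFA. The groups did not overlap, but Control replicate 2 was closer to the ALA arrays than to Control replicate 1. S100a9 rose on SFA by 0.87 (SE 0.20, adjusted p = 0.0349) and was at 0.49 on ALA (SE 0.20, adjusted p = 0.189). The call on SFA was lost without Control replicate 1 (0.57, adjusted p = 0.0887), without either ALA array (0.0563 each) and without SFA replicate 1 or 2 (0.134 each). Without Control replicate 2 the change was 1.18. S100a8 was at 4.38 and 4.52 on Control, 4.51 and 4.63 on ALA and 5.27 and 4.46 on SFA. A single array, SFA replicate 1, stood above the rest, and the change of 0.41 on SFA did not pass (SE 0.24, adjusted p = 0.347 in the fit over all genes).

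Retnlg, which encodes a resistin-like protein of maturing neutrophils, was at 4.36 and 4.51 on Control, 5.14 and 5.08 on ALA and 5.32 and 5.15 on SFA. All 4 ALA and SFA arrays were above both Control arrays, and ALA and SFA lay close to each other. In the fit over all genes Retnlg was at 0.80 on SFA (SE 0.15, adjusted p = 0.0202) and at 0.67 on ALA (SE 0.15, adjusted p = 0.0507). The difference between ALA and SFA was -0.12 (95% interval -0.46 to 0.21).

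Cebpe, which encodes the transcription factor of the specific granule stage, was highest on Control. Its signal was 5.88 and 6.19 on Control, 5.42 and 5.57 on ALA and 5.63 and 5.57 on SFA. Both Control arrays were above all 4 others. The changes were -0.54 on ALA (SE 0.15, unadjusted p = 0.00761, adjusted p = 0.0701) and -0.44 on SFA (SE 0.15, unadjusted p = 0.0200, adjusted p = 0.0913), so neither was called. In the fixed alternatives its change stayed negative on both diets, from -0.70 to -0.39 on ALA and from -0.59 to -0.28 on SFA, with no call.

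**Figure D2:**
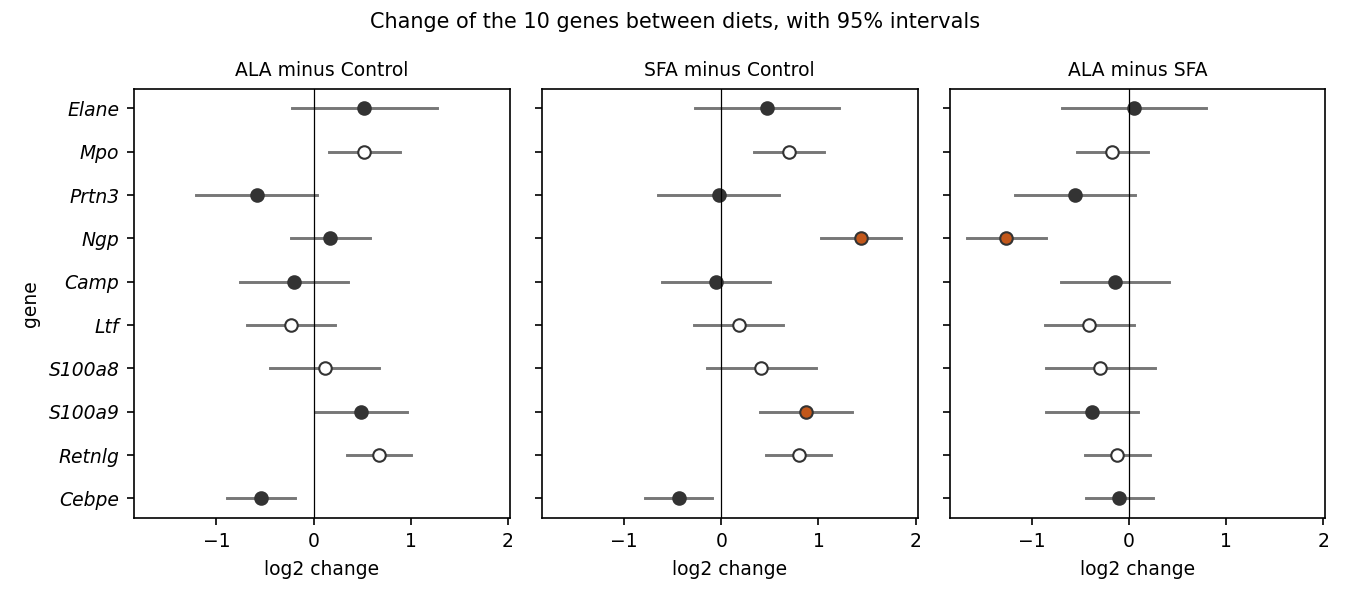
Log2 change (horizontal axis) of each of the 10 genes (vertical axis) in the 3 comparisons; bars are 95% intervals from limma (n = 2 arrays per group). Orange points were called among genes past the minimum, and black points were tested there and not called. White points were below the minimum signal and come from the fit over all genes. That fit called Mpo and Retnlg on SFA against Control, which the colours do not show. It did not call Ngp between ALA and SFA, which is orange here. Ngp on SFA, at 1.44 against Control, has the largest change.

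In the fit over all 19938 genes, 4 of the 10 members were called on SFA against Control (Ngp, S100a9, Mpo and Retnlg, all higher), beside 5.99% of all genes in either direction. On ALA against Control 0 were called by limma, beside 3.07%, while 4 had an unadjusted p below 0.05 (S100a9, Mpo, Retnlg and Cebpe), beside 16.0% of all genes. Between ALA and SFA 0 were called, beside 0.160%, and 1, Ngp, had an unadjusted p below 0.05, beside 17.1%. The moderated F test of any diet difference called 2 of the 10, Ngp (adjusted p = 0.00917) and Retnlg (0.0334), beside 5.25%.

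Among the 6 members past the minimum, SFA against Control had 2 called as higher (Ngp and S100a9) and 0 as lower, beside 6.62% and 7.15% of the 10977 tested genes. ALA against Control had 0 called in either direction, beside 5.11% higher and 2.82% lower, and 2 had an unadjusted p below 0.05 (S100a9 and Cebpe), beside 24.7% of tested genes. Ngp was the 1 member called between ALA and SFA (0.437% lower among tested genes) and in the F test (13.5%). As Ngp was tested there because its SFA arrays were high, nothing is read from any count that includes it, that of SFA against Control among them.

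The direction of the arrays can be counted for all 10. Both SFA arrays were above both Control arrays for 5 members (26.8% of all 19938 genes) and below for 1, Cebpe (29.0%). Both ALA arrays were above both Control arrays for 3 members, S100a9, Mpo and Retnlg (22.3%), and below for 2, Ltf and Cebpe (25.2%). Both ALA arrays were below both SFA arrays for 7 members (24.1%) and above for 0 (24.3%). The median change of the 10 was 0.44 on SFA and 0.14 on ALA, and between ALA and SFA it was -0.23. Over all genes these medians were -0.01, -0.02 and -0.01. The median of the olfactory receptor probes was 3.39 and 3.42 on SFA and 3.26 to 3.27 on the other arrays. Their 95th percentile was 4.39 and 4.41 on SFA, 4.25 and 4.31 on ALA and 4.36 and 4.44 on Control. The median of all probes went the other way, at 4.76 and 4.82 on SFA and 4.90 to 4.96 on the other arrays. The part of such differences between arrays in the changes of the members was not tested. Each diet was compared with the same 2 Control arrays, so the 3 sets of values are not independent of each other.

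To set early against late granule genes, each gene was centred on its mean over the 6 arrays, and Elane, Mpo and Prtn3 were averaged as azurophilic and Ngp, Camp and Ltf as specific. The azurophilic mean was -0.16 and -0.20 on Control, 0.26 and -0.31 on ALA and 0.12 and 0.29 on SFA. The specific granule mean was -0.20 and -0.08 on Control, -0.10 and -0.37 on ALA and 0.37 and 0.38 on SFA. The ALA arrays held both the second highest and the lowest azurophilic mean, while both specific granule means on SFA were above those of the other 4 arrays. The azurophilic minus the specific mean was 0.04 and -0.11 on Control, 0.36 and 0.06 on ALA and -0.25 and -0.10 on SFA. Both ALA arrays were above the other 4, with ALA replicate 2 close to Control replicate 1.

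Against Control, the azurophilic mean was at 0.15 on ALA and 0.38 on SFA, and the specific mean at -0.09 on ALA and 0.52 on SFA. Early minus late thus came to 0.24 on ALA and -0.14 on SFA, where duplicate arrays differed with an SD of 0.15. As a score over chosen genes it was given no test. The sign of the value on SFA depends on how Ngp enters. With the median in place of the mean it was 0.23, and with Ngp left out, a choice made after the data were seen, it was 0.32. With S100a8, S100a9 and Retnlg added to the late genes it was -0.23. On ALA it was 0.56 with the median and -0.02 with those 3 genes added. Neither set moved as 1 group: on SFA the changes were 0.47, 0.70 and -0.03 for Elane, Mpo and Prtn3 and 1.44, -0.06 and 0.18 for Ngp, Camp and Ltf.

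**Figure D3:**
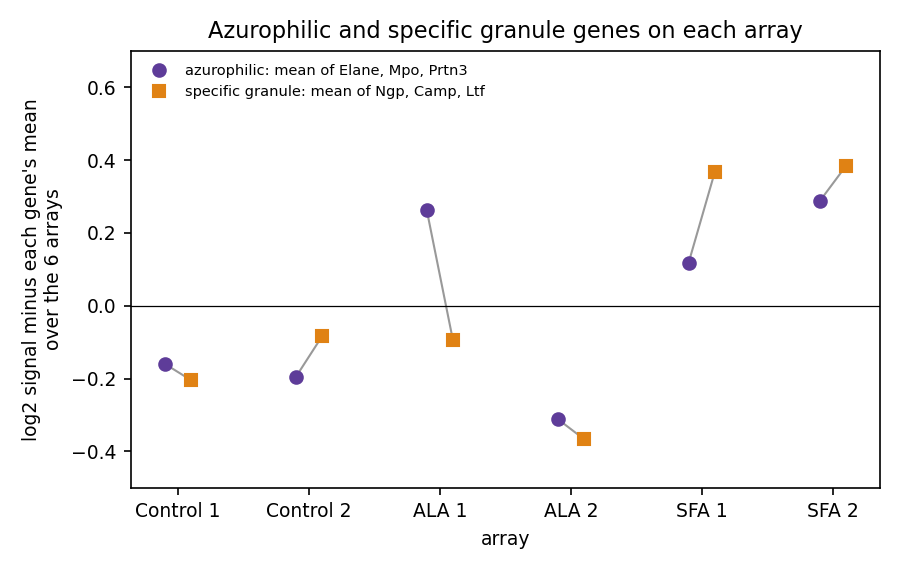
Mean log2 signal of the azurophilic genes (purple circles) and the specific granule genes (orange squares) on each array (horizontal axis), each gene centred on its mean over the 6 arrays; a grey line joins the 2 means of an array. The azurophilic mean is above the specific mean on both ALA arrays and on Control replicate 1, and below it on the other 3.

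Wider lists of the same stages were read beside the members, which they include. Of 12 azurophilic-stage genes 6 were tested. Srgn, which encodes serglycin, the proteoglycan that packs proteases into granules of many blood cells, rose by 0.86 on ALA (SE 0.20, adjusted p = 0.0467) and by 1.13 on SFA (SE 0.20, adjusted p = 0.0169). Ctsc, which encodes the lysosomal protease that activates granule serine proteases and is present in many tissues, fell by 1.06 on ALA (SE 0.23, adjusted p = 0.0366) and was at -0.59 on SFA (adjusted p = 0.125). No other gene of this list passed in either comparison with Control. The promyelocyte gene Ms4a3 was between 3.47 and 4.19, below the olfactory receptor level on every array, and Ctsg, which encodes cathepsin G, was between 3.92 and 4.79.

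Of 13 genes of the specific granule stage 7 were tested, of which 4 rose on ALA and 3 on SFA, and 0 fell. Ngp met the minimum through its SFA arrays and Cd177 through its ALA arrays, so nothing is read from these counts. The genes that rose on both diets were Cyba and Cybb, the 2 membrane subunits of the phagocyte NADPH oxidase, which macrophages also express. Cyba rose by 1.29 on ALA and by 1.35 on SFA (SE 0.18, adjusted p = 0.00935 and 0.00702), and Cybb by 1.16 and 1.00 (SE 0.17, adjusted p = 0.0126 and 0.0157). The third on SFA was Ngp. Lcn2, which encodes a siderophore-binding protein that hepatocytes also make in the acute phase, was at 7.63 and 9.86 on Control, 11.9 and 11.1 on ALA and 9.38 and 9.45 on SFA. It rose by 2.76 on ALA (SE 0.64, adjusted p = 0.0470), and its Control arrays lay further apart than the duplicates of either other diet. Cd177, a neutrophil surface protein gene, was at 5.00 and 4.82 on Control, 5.59 and 5.80 on ALA and 4.86 and 4.46 on SFA. Its change was 0.79 on ALA against Control (SE 0.17, limma adjusted p = 0.0409). Against SFA it was 1.04 (SE 0.17, limma adjusted p = 0.0431). None of its Control and SFA arrays was above 5, so Cd177 met the minimum through its ALA arrays. Neither of its calls is read. Chil3, a chitinase-like gene of maturing neutrophils and macrophages, was below the olfactory receptor level on all 6 arrays, and the collagenase gene Mmp8 on 5 of 6.

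Of 20 genes of mature neutrophils 15 were measured and 5 tested. On ALA 0 rose and 1 fell, and on SFA 1 rose (S100a9) and 2 fell. Wfdc21, a whey acidic protein family gene, fell from 8.75 and 9.31 on Control to 7.54 and 6.40 on ALA and 5.49 and 5.52 on SFA. It fell by 2.06 on ALA (SE 0.36, adjusted p = 0.0208) and fell by 3.52 on SFA (SE 0.36, adjusted p = 0.00369). On Control Wfdc21 was brighter than any of the members on any array (at most 6.35). Which cells its signal came from was not tested. Asprv1, a protease gene, fell by 0.59 on SFA (SE 0.13, adjusted p = 0.0287). The defining surface marker gene Ly6g was between 3.93 and 4.41 and above the olfactory receptor level on 2 of 6 arrays. Cxcr2, the receptor gene for neutrophil-attracting chemokines, was between 4.03 and 4.78, and Csf3r, the receptor gene for granulocyte colony-stimulating factor, between 4.15 and 5.24.

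Of 15 regulators of granulocyte formation 9 were tested. Spi1, which encodes PU.1, a factor of both granulocytes and macrophages, was at 5.88 and 5.53 on Control, 6.99 and 6.62 on ALA and 6.45 and 6.39 on SFA. It rose by 1.09 on ALA (SE 0.18, adjusted p = 0.0167) and by 0.71 on SFA (SE 0.18, adjusted p = 0.0424). Cebpb, a C/EBP factor gene of emergency granulocyte formation that hepatocytes also express, rose by 0.81 on ALA (SE 0.17, adjusted p = 0.0324) and was at 0.30 on SFA (adjusted p = 0.253). Gfi1, a repressor gene of granulocyte differentiation, was between 4.62 and 4.88 on all arrays. Csf3, the ligand gene of Csf3r, was between 3.64 and 4.02. Of 9 measured progenitor genes 5 were tested and 1 rose on each diet, Cd34, by 1.08 on ALA and 0.96 on SFA (SE 0.22, adjusted p = 0.0347 and 0.0366), which endothelium also expresses.

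Markers of other cells moved between the same arrays. Of 16 macrophage and Kupffer cell genes 15 were tested, of which 14 rose on ALA and 10 on SFA, with 0 lower. Their summed signal (log2 of the sum of linear signals) was 11.8 and 11.6 on Control, 12.9 and 12.5 on ALA and 12.5 on both SFA arrays. Lyz2, the lysozyme gene of macrophages and neutrophils, rose by 0.82 on ALA and by 0.96 on SFA (SE 0.19, adjusted p = 0.0467 and 0.0233). Cd163, a macrophage scavenger receptor gene, was between 3.85 and 4.70. The summed signal of the 10 members was 8.32 and 8.48 on Control, 8.59 and 8.32 on ALA and 8.77 and 8.78 on SFA. Of 9 monocyte genes 8 were measured and 5 tested, with 1 higher on ALA and 0 on SFA, and the monocyte receptor gene Ccr2 was below the olfactory receptor level on all arrays. Eosinophil, basophil and mast cell genes had 0 called of 2 tested, and 11 were measured. The summed signal of these 11 was between 7.67 and 7.84, and Cpa3, Mcpt8, Fcer1a, Ms4a2 and Cma1 were below the olfactory receptor level on all arrays. The part of macrophages or other cells in the values of S100a9, Cyba, Cybb and Spi1 was not tested.

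Cell cycle genes, which dividing myeloid precursors share with hepatoblasts and red cell precursors, rose for 6 of 12 tested genes on ALA and 10 on SFA. Their summed signal was 9.56 and 9.46 on Control, 10.2 and 11.3 on ALA and 11.5 and 11.4 on SFA. Erythroid genes rose for 3 of 9 tested on each diet and fell for 0 on ALA and 1 on SFA, with a summed signal from 9.46 on Control replicate 1 to 10.7 on SFA replicate 1. Lymphoid genes had 0 called of 4 tested on either diet.

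Megakaryocyte and platelet genes rose for 4 of 8 tested on each diet, with 0 lower, and their summed signal was 8.81 and 8.83 on Control, 9.94 and 9.56 on ALA and 10.4 and 10.2 on SFA. Like Ngp, Pf4, the platelet factor 4 chemokine gene, was highest on SFA, at 5.29 and 4.89 on Control, 6.24 and 6.39 on ALA and 7.42 and 7.46 on SFA. It rose by 1.22 on ALA and by 2.35 on SFA (SE 0.16, adjusted p = 0.00858 and 0.00128), and between ALA and SFA it was at -1.13 (adjusted p = 0.0393). Ppbp, another platelet chemokine gene, rose by 1.54 on ALA and by 3.00 on SFA (SE 0.35, adjusted p = 0.0427 and 0.00500). Endothelial genes rose for 5 of 8 tested on each diet, with 0 lower and a summed signal of 11.0 and 10.4 on Control, 12.0 and 11.7 on ALA and 11.5 on both SFA arrays. The part of these cells, and of whatever cells gave the change in Afp, in the change of Ngp was not tested. Afp on Control (4.52 and 4.81) was itself near the olfactory receptor level (4.36 and 4.44).

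**Figure D4:**
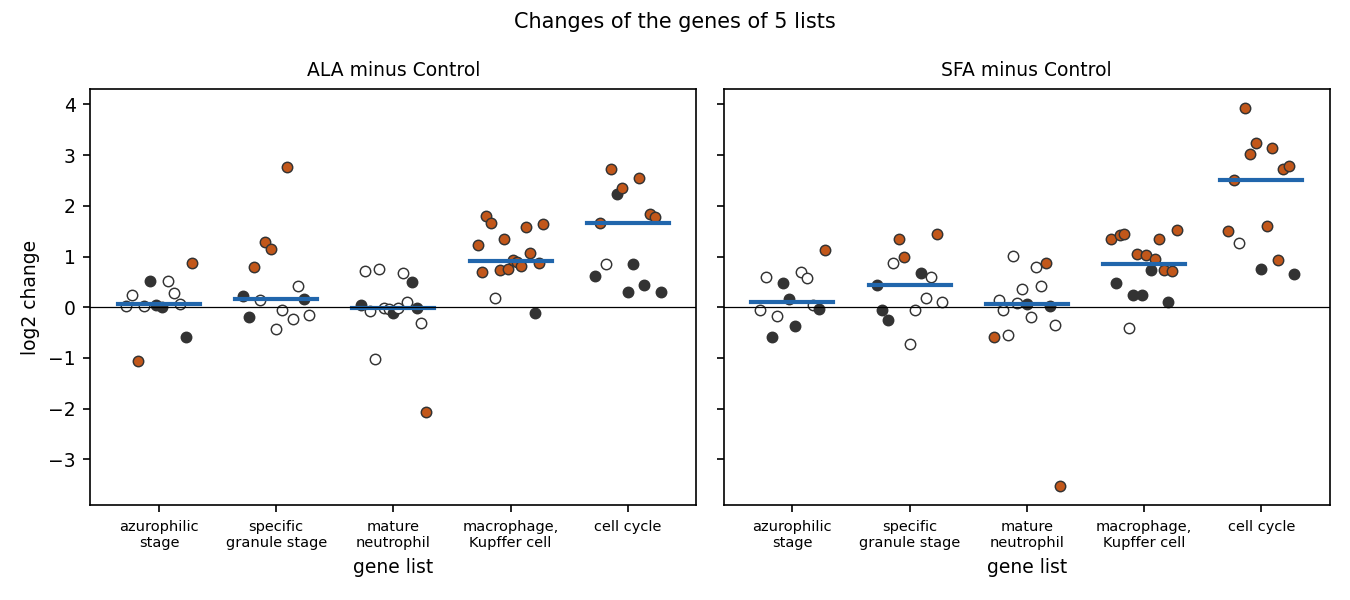
Log2 change (vertical axis) of each measured gene of 5 lists (horizontal axis) on ALA and on SFA against Control. Orange points were called among genes past the minimum, which Ngp met through its SFA arrays and Cd177 through its ALA arrays. Black points were tested and not called, and white points were below the minimum signal. The blue line is the median of the measured genes. The medians of the macrophage list (0.91 on ALA, 0.84 on SFA) and the cell cycle list (1.65 and 2.52) are above those of the 3 neutrophil lists.

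Genes outside the members were ranked by how closely they followed the members over the 6 arrays, among 1654 tested genes with a range of at least 1. Nearest to the specific granule mean were Tpgs2, Ciao2a, Txndc12, Slc34a2 and Tbc1d7, with Pearson's r from 0.948 to 0.988. Slc34a2, a sodium-phosphate cotransporter gene, was at 5.11 and 4.85 on Control, 5.15 and 4.62 on ALA and 6.48 and 6.24 on SFA. Nearest to the azurophilic mean were A2m, Kcnj8, Cdkn2aipnl, Elapor1 and Clec4a1, with r from 0.879 to 0.929. Clec4a1, a C-type lectin receptor gene of myeloid cells, was at 4.89 and 5.17 on Control, 6.56 and 5.43 on ALA and 6.24 on both SFA arrays. None of these 10 was on the lists above. With 6 arrays and this many genes, such values of r describe likeness only.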

How the data were processed

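Total RNA from pooled livers was hybridised to 1-colour Affymetrix arrays. The deposited log2 values were made by the authors with RMA and Partek 6.6, per the submitters' processing notes; background and summary settings are not given in the sources used here, and the log base was read from the values. Arrays carry no read depth, and the number of arrays limits the precision. Of 35556 probes, 21789 had 1 gene symbol in the platform annotation, 1621 had several and 12146 none. Of those with 1 symbol, 21698 were found in RefSeq (GRCm38.p6) with 0 symbols changed. Genes with a mean log2 signal of at least 5 were tested in R 4.3.3 with limma 3.58.1 (a mean per diet, 3 residual degrees of freedom, empirical Bayes), two-sided. Benjamini-Hochberg adjustment ran over all 10977 tested genes, and an adjusted p below 0.05 was called. The fit was tested on simulated data. Text names all members, up to 4 called genes per list, and the 5 genes most like each granule mean; others were named after their values were seen. Members and lists were chosen with earlier results of these data known. As alternatives, filters, scaling, probe choice, the prior, the arrays fitted, a replicate block and each array were varied.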

Additional observations from a re-analysis of the deposited data

How the results depend on the processing

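The rise of Ngp on SFA was between 1.28 and 1.60 in all 15 alternatives that tested it, and with a minimum mean of 6 it was not tested. It was called with no minimum (limma adjusted p = 0.00586) and with a minimum of 4 (0.00652). In the other alternatives Ngp was tested through its SFA arrays, so nothing is read from their calls of this rise. S100a9 on SFA was called in 9 of 15 alternatives. Ngp between ALA and SFA was called in 5 of 15, all with the minimum of 5 that it met through its SFA arrays. Nothing is read from those calls of Ngp. It was not called with no minimum (limma adjusted p = 0.0524) or with a minimum of 4 (0.0511). No other member past the minimum of 5 was called in any comparison. Members called on SFA against Control were 4 with no minimum, beside 1194 genes in all (5.99% of 19938). They were 4 with a minimum of 4, beside 1332. The numbers of genes tested with minima of 4 and 6 are not given here, so no share is read for them. With a minimum of 6, which none of the members met, 0 were called, beside 1394 genes. With only the 2 groups fitted 1 member was called, beside 1428 genes, but it was Ngp, so nothing is read from this count. On ALA against Control 1 was called with a minimum of 4 (Retnlg, limma adjusted p = 0.0416), beside 680 genes in all. Between ALA and SFA 0 were called with no minimum, with 4 or 6, with only the 2 groups, or without any 1 array (0 to 2 at an unadjusted p below 0.05). Over all genes, ALA against SFA had 32 called with no minimum, 30 with 4, 293 with 6, 100 after 75th percentile centring, 68 after quantile normalization, 76 after cyclic loess, 308 with an intensity trend, 11 with only the 2 groups, and from 0 to 36 without 1 array (1634 to 2383 at an unadjusted p below 0.05). ALA against Control had 448 with only the 2 groups and from 267 to 475 without 1 array. SFA against Control ranged from 245 to 1428 and the F test from 318 to 988 without 1 array. The causes were not tested. With the replicate number as a block, ALA against SFA had 0 genes called by limma (2393 at an unadjusted p below 0.05) and 0 members (Ngp adjusted p = 0.0633). Same-numbered arrays did not deviate together (r from -0.03 to 0.02 across genes). With 2 arrays per diet, this cannot settle whether the numbers pair the pools. The block changed no other count of members.

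Early minus late granule change without 1 array ranged from 0.09 to 0.39 on ALA, from -0.22 to -0.06 on SFA and from 0.23 to 0.53 for ALA minus SFA. With S100a8, S100a9 and Retnlg as late genes it was -0.0167 on ALA, -0.23 on SFA and 0.21 for ALA minus SFA. With medians it was 0.56 on ALA and 0.23 on SFA. With Ngp left out it was 0.32 on SFA and 0.0491 for ALA minus SFA. Low signal over background limits all 10 genes.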
